A study of Homo sapiens with 30 samples.

Results

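The 28 genes described here make cholesterol from acetyl-CoA, sense its level in the cell or move it between membranes, and many of them are transcribed under SREBP2. They were taken as a list of symbols, and all 28 were found among the 60675 gene rows of the count table. HT29 is an established line of human colorectal adenocarcinoma cells. It was treated for 24 h with ethanol extracts of 4 multi-herb formulas of Korean medicine, and total RNA was sequenced. Soshiho-tang and Yijin-tang each had 3 libraries at 500 µg/mL (high dose), 3 at 100 µg/mL (medium dose) and 3 at 20 µg/mL (low dose), and the vehicle group, DMSO alone, had 3 libraries. Okbyeongpung-san had 2 libraries at each of the same doses, and Soyo-san had 1. In all groups the cells received the same solvent, which is 0.1% DMSO by the treatment protocol and 2% in the design text. The design text also says that extracts with a 20% inhibitory concentration under 500 µg/mL were used at that concentration and its dilutions, whereas the titles give no other dose for these 4 formulas. The sample titles put the vehicle, Soshiho-tang, Yijin-tang and replicate 2 of Okbyeongpung-san in a batch E. Batch D held replicate 3 of Okbyeongpung-san and all of Soyo-san; what a batch is was not stated. Vehicle libraries in batch D and libraries of wortmannin, named in the design text, were not analysed here.

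In the cholesterol pathway, acetyl-CoA is built up through mevalonate to isoprenoids, squalene and lanosterol, and lanosterol is then trimmed to cholesterol. SREBP2, encoded by SREBF2, is a membrane-bound transcription factor that its escort SCAP carries from the endoplasmic reticulum to the Golgi when sterols are scarce, where proteases release the active part. The INSIG proteins hold SCAP back when sterols are plentiful. INSIG1 is itself a target of SREBP2, so its mRNA is commonly read together with those of the synthesis enzymes, whereas INSIG2 is not induced in the same way. Gut epithelium makes and takes up cholesterol and feeds the same precursors into prenylated proteins.

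The promoters of 5 of the genes are shown because the results below turn on their mRNAs: 4 that fell from low to high dose in each of the 3 replicated formulas, and NPC1, which rose in Soshiho-tang. The sequences are those RefSeq gives for GRCh38.p14, 300 bases each, from 250 before the transcription start to 50 after it, written 5′ to 3′ on the strand of the gene. HMGCS1 lies at chr5:43313363-43313662 (minus strand, the first of its 2 listed starts), LSS at chr21:46228725-46229024 (minus), TM7SF2 at chr11:65111622-65111921 (plus), INSIG1 at chr7:155297628-155297927 (plus) and NPC1 at chr18:23586457-23586756 (minus). Capitals mark CCAAT, the letters that NF-Y binds, and CACNCCA, the core of the sterol regulatory element, on either strand, so that they also appear as ATTGG and as the reverse complement.
HMGCS1: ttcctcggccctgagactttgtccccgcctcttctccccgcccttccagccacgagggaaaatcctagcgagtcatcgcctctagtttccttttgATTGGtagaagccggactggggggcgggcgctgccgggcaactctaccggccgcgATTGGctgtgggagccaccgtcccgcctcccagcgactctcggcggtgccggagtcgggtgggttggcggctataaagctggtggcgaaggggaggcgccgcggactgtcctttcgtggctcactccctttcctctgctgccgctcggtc
LSS: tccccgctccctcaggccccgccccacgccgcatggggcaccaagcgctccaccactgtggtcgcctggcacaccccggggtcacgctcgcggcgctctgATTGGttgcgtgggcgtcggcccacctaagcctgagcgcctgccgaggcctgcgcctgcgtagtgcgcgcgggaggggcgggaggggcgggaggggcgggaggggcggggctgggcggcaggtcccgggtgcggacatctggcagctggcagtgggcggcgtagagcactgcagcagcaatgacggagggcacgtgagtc
TM7SF2: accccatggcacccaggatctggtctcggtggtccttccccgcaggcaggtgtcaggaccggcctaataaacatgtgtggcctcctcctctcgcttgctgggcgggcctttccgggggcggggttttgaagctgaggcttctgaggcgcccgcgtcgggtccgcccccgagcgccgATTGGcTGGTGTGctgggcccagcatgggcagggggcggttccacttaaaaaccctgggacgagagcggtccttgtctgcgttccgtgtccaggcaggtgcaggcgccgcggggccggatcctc
INSIG1: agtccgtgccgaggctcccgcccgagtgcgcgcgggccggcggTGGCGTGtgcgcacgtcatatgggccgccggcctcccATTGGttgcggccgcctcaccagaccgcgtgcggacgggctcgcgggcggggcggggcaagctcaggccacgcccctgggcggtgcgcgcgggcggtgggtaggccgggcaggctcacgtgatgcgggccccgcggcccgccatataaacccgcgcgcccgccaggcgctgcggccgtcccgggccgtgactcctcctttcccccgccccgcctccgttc
NPC1: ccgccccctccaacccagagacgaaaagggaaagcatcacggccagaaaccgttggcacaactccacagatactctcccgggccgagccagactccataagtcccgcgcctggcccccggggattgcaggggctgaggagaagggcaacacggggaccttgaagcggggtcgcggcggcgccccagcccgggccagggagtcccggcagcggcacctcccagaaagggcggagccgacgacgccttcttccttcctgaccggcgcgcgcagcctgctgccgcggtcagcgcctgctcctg
HMGCS1 carried 2 CCAAT matches in this window, LSS carried 1, and TM7SF2 and INSIG1 carried 1 of each motif. The TM7SF2 pair stood side by side, starting 74 and 68 bases before the transcription start. NPC1 held neither. Promoters of 25 of the 28 genes were in the table, and CCAAT was in 17 of them (68.0%), against 35.7% of 27305 gene promoters of the same length. CACNCCA was in 8 of 25 (32.0%) against 17.4%, and all of those 8 also held CCAAT, against 6.19% of all promoters that held both. GGGCGG, the letters that SP1 binds, was in 22 of 25 (88.0%) against 44.6%. Matches were counted on both strands, and CACNCCA and CCAAT can share letters. These are matches of letters only and say nothing of binding in HT29 cells.

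The libraries held 18.5 to 36.2 M counts each (M, mega), with a median of 24.2 M, and transcripts encoded by the mitochondria took 9.06 to 13.9% of them. In a principal component analysis of all libraries, the 3 vehicle libraries and replicate 2 of the Okbyeongpung-san medium dose stood apart from the rest on the second component (6.17% of the variance). The first (11.9%) set the 3 Soshiho-tang high libraries apart, at 33.1 to 38.1 against at most 11.6 elsewhere. The 10 colorectal epithelial marker genes summed to between 11100 and 14000 CPM (counts for each M counts of the library, after scaling). The 4 leukocyte, 4 fibroblast and 4 endothelial markers each summed to under 4 CPM in every library, with 3 of the 4 genes of each list below 1 CPM. Nothing in the labels says that replicates came from separate cultures, so p-values measure the spread between these libraries, which may be technical. RNA levels per cell and the number of cells cannot be told apart in such libraries.

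At 500 µg/mL most of the cholesterol genes were lower than at 20 µg/mL of the same formula. The synthesis genes and INSIG1 are 22 of the 28. They made up 15 of the 19 calls in Soshiho-tang, LBR among them with a rise, which is close to their share of the list. In Yijin-tang and Okbyeongpung-san they made up all calls. Differences were tested for all genes with edgeR's quasi-likelihood test, and a gene was called at a Benjamini-Hochberg adjusted p under 0.05. All 28 genes passed the filter on low counts. In Soshiho-tang 16 of the 28 fell and 3 rose, where 13.5% of 15882 genes fell and 13.3% rose. In Yijin-tang 14 fell and none rose, where 1.13% of genes fell and 0.724% rose. In Okbyeongpung-san 6 fell and none rose, where 0.311% of 15762 genes fell and 0.247% rose.

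The median log2 fold change of the 28 genes was -0.16 in Soshiho-tang, -0.20 in Yijin-tang and -0.25 in Okbyeongpung-san, beside medians over all genes of -0.01, 0 and 0. The values were below 0 for 22 of the 28 genes in all 3 formulas. HMGCS1, FDPS, LSS, TM7SF2, MSMO1 and INSIG1 fell in all 3. PMVK, LBR, NSDHL, SC5D, GGPS1, INSIG2, SCAP, STARD4 and NPC1 fell in none in these fits. Some of them were called lower in alternative fits, paired and unpaired. In Yijin-tang all 3 high libraries lay below all 3 low libraries for 23 of the 28 genes, which was so for 11.4% of all genes. The same held for 16 of 28 in Soshiho-tang, against 20.7% of all genes, and for 22 of 28 in Okbyeongpung-san, where with 2 libraries a group 23.6% of all genes did so.

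Because same-numbered Yijin-tang libraries deviated together, that formula was also fitted alone with the replicate as a block, a fit added after the data were seen. Under that fit 23 of the 28 genes were called, 22 lower and LBR higher, where 1456 of 15406 genes were called. Without the block the formula alone gave 21 calls, where 858 of 15406 genes were called. The fit with vehicle and Soshiho-tang gave 14, where 295 of 15882 genes were called. Beyond those 14, the lower genes of the paired fit were ACAT2, MVK, NSDHL, HSD17B7, SC5D, SREBF2, STARD4 and NPC2. Fitting the formula alone had already brought the count to 21, so these genes are not the yield of the pairing alone. In Okbyeongpung-san the replicate number coincides with the batch. The block called 11 of the 28 genes, all lower, where 156 of 15762 genes were called. A batch term called 5 of the 28, where 55 of 15762 genes were called. Leaving out any 1 of the 4 Okbyeongpung-san high or low libraries left 1 call, INSIG1.

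**Figure D1:**
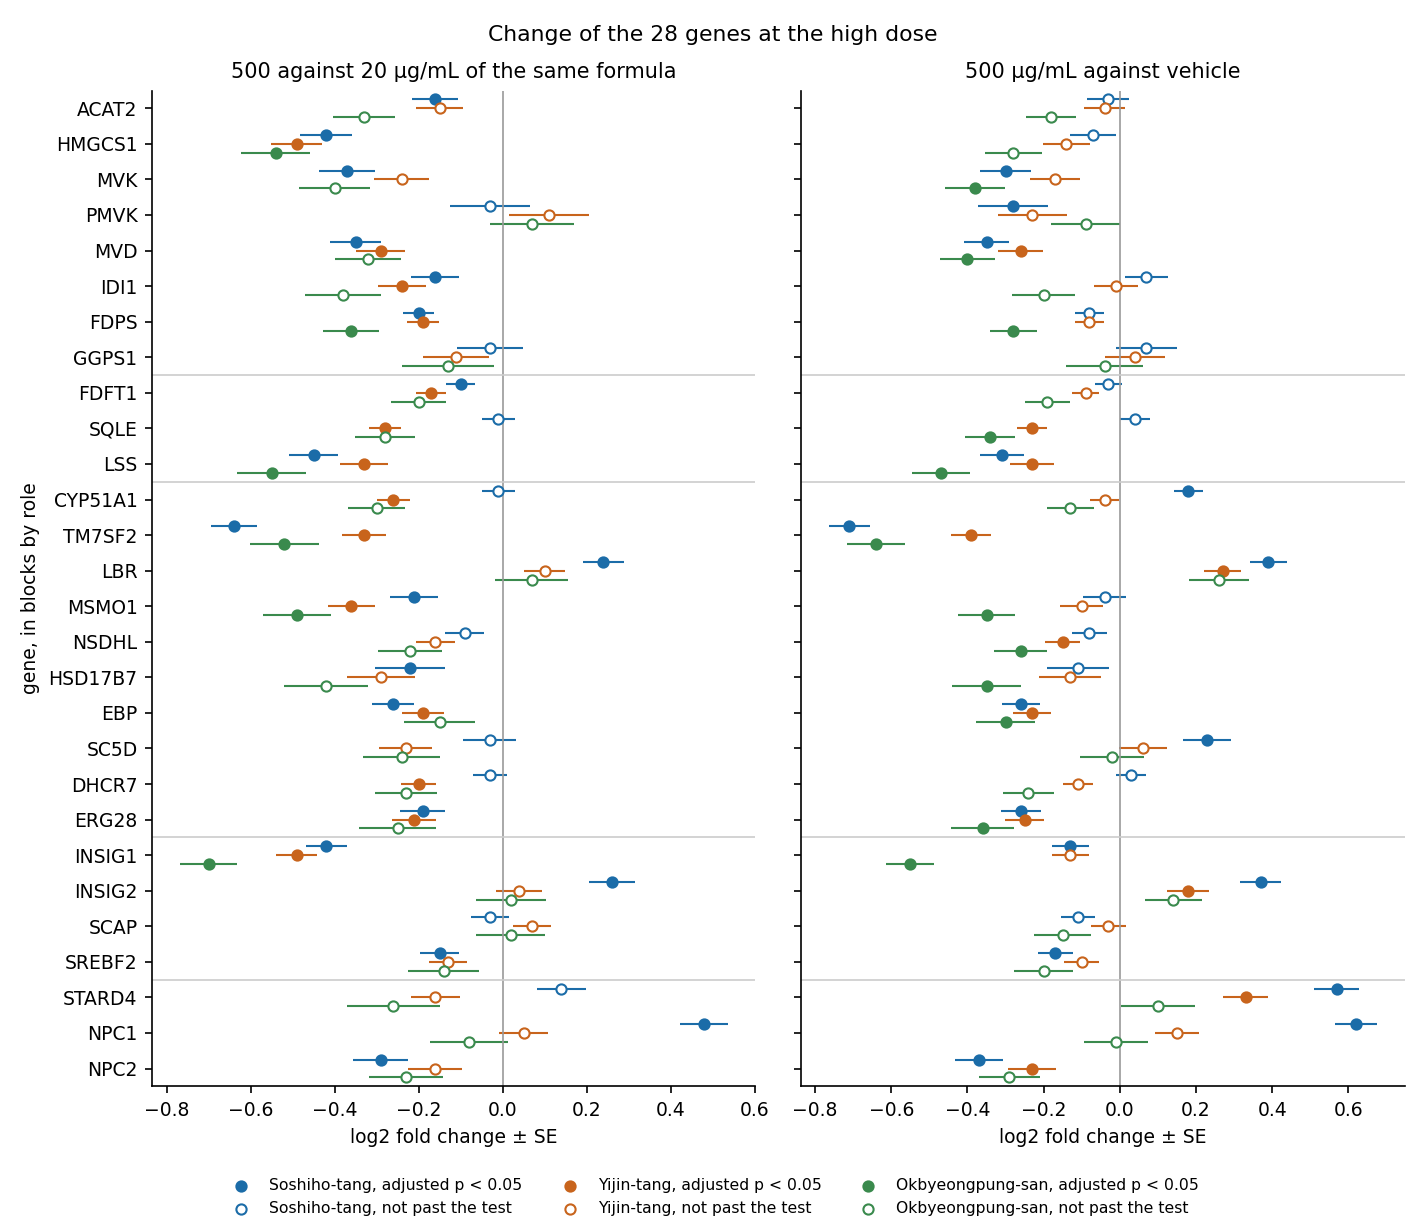
Log2 fold change (horizontal axis, ± SE) of the 28 genes at 500 µg/mL against 20 µg/mL of the same formula (left) and against vehicle (right), for Soshiho-tang (blue), Yijin-tang (orange) and Okbyeongpung-san (green); filled points passed the test. Blocks from top to bottom are early enzymes, squalene and lanosterol enzymes, lanosterol to cholesterol, sterol sensing and sterol transport. Most points on the left lie below 0, with INSIG1 in Okbyeongpung-san at -0.70 the lowest and NPC1 in Soshiho-tang at 0.48 the highest.

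Among the early enzymes, which lead from acetyl-CoA to isoprenoids, 6 of 8 fell in Soshiho-tang, 4 of 8 in Yijin-tang and 2 of 8 in Okbyeongpung-san. HMGCS1, which condenses acetyl-CoA units to HMG-CoA, moved most. In Soshiho-tang HMGCS1 stood at 218, 209 and 214 CPM at the low dose and at 161, 157 and 163 CPM at the high dose. In Yijin-tang HMGCS1 went from 217, 214 and 209 CPM to 145, 156 and 156 CPM. In Okbyeongpung-san HMGCS1 went from 198 and 206 CPM to 135 and 143 CPM. No high library of any of the 3 formulas reached a low library. The log2 fold changes of HMGCS1 were -0.42 ± 0.061 (SE, adjusted p = 1.4e-05), -0.49 ± 0.061 (adjusted p = 5.6e-05) and -0.54 ± 0.082 (adjusted p = 0.0089), in that order.

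The vehicle libraries of HMGCS1, at 167, 182 and 159 CPM, had a mean between those of the low and high doses, nearer to the high dose in Soshiho-tang and Yijin-tang. Against vehicle the HMGCS1 difference was -0.07 ± 0.061 at the Soshiho-tang high dose (adjusted p = 0.41), -0.14 ± 0.061 in Yijin-tang (adjusted p = 0.10) and -0.28 ± 0.075 in Okbyeongpung-san (adjusted p = 0.055). None of the 3 passed the test. FDPS, which makes farnesyl diphosphate, showed the same order of levels. FDPS fell by 0.20, 0.19 and 0.36 on the log2 scale between low and high dose in Soshiho-tang, Yijin-tang and Okbyeongpung-san. Its vehicle libraries, at 133, 139 and 133 CPM, lay between the low (143, 144 and 148 CPM) and high (124, 128 and 129 CPM) libraries of Soshiho-tang.

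MVK and MVD, a kinase and a decarboxylase of the mevalonate chain, were instead below both references at the Soshiho-tang high dose. MVK stood at 36.9, 34.4 and 33.2 CPM in vehicle, at 37.3, 35.8 and 36 CPM at the Soshiho-tang low dose and at 25.9, 31.9 and 26.5 CPM at its high dose. MVK fell by 0.37 against low (adjusted p = 0.00011) and by 0.30 against vehicle (adjusted p = 0.00068). MVD fell by 0.35 against both, from 52.7, 48.9 and 51.1 CPM in vehicle to 40.6, 42.3 and 35.5 CPM. In Yijin-tang MVD fell by 0.29 against low and by 0.26 against vehicle, and in Okbyeongpung-san by 0.40 against vehicle, where its value against low was -0.32 (adjusted p = 0.13). MVK in Yijin-tang was at -0.24 against low (adjusted p = 0.05, just over the threshold) and -0.17 against vehicle (adjusted p = 0.069), neither called. In Okbyeongpung-san MVK was at -0.40 against low (adjusted p = 0.061) and fell by 0.38 against vehicle (adjusted p = 0.021). Without replicate 3 of the Yijin-tang high dose the call of MVD against low was lost. PMVK, the kinase between MVK and MVD, and GGPS1, which makes geranylgeranyl diphosphate, were not called between high and low dose in any formula. ACAT2 and IDI1, an acetyl-CoA thiolase and the isopentenyl diphosphate isomerase, had values of -0.16 each in Soshiho-tang.

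Of the 3 enzymes that lead through squalene to lanosterol, LSS and FDFT1 fell in Soshiho-tang, all 3 fell in Yijin-tang and LSS fell in Okbyeongpung-san. LSS, lanosterol synthase, stood at 103, 91.6 and 88.2 CPM in vehicle, at 108, 101 and 99.7 CPM at the Soshiho-tang low dose and at 72.1, 78.7 and 75.6 CPM at the high dose. LSS was at 79.9, 81.4 and 78.4 CPM at the Yijin-tang high dose and at 68.8 and 67.7 CPM at that of Okbyeongpung-san. All 8 of these high libraries lay below every vehicle and low library of LSS. The log2 fold changes against low were -0.45 ± 0.059 (adjusted p = 1.4e-06), -0.33 ± 0.058 (adjusted p = 0.0012) and -0.55 ± 0.083 (adjusted p = 0.0084). Against vehicle LSS fell by 0.31, 0.23 and 0.47.

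SQLE, squalene epoxidase, separated the formulas. At the Soshiho-tang high dose SQLE stood at 705, 680 and 705 CPM, beside 715, 690 and 693 CPM at its low dose and 660, 700 and 686 CPM in vehicle, and these ranges overlapped. At the Yijin-tang high dose SQLE stood at 563, 575 and 585 CPM, below its low libraries at 694, 696 and 705 CPM. At the Okbyeongpung-san high dose it stood at 523 and 551 CPM, below 650 and 653 CPM at the low dose. SQLE fell by 0.28 in Yijin-tang against low (adjusted p = 0.00013) and by 0.23 against vehicle (adjusted p = 0.00011). In Okbyeongpung-san SQLE was at -0.28 ± 0.071 against low (adjusted p = 0.16) and fell by 0.34 against vehicle (adjusted p = 0.015). FDFT1, squalene synthase, fell by 0.10 in Soshiho-tang and by 0.17 in Yijin-tang, and the former call was lost without any 1 of the 6 libraries.

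Of the 10 genes between lanosterol and cholesterol, 5 fell and LBR rose in Soshiho-tang, 6 fell in Yijin-tang and 2 fell in Okbyeongpung-san. TM7SF2, a sterol C14-reductase, had the lowest adjusted p of the 28 genes in Soshiho-tang. TM7SF2 stood at 36.2, 33.8 and 38 CPM in vehicle and at 33.6, 34.9 and 33.2 CPM at the Soshiho-tang low dose. Its medium-dose libraries were at 30.8, 30.2 and 29.4 CPM and its high-dose libraries at 22, 21.8 and 21.7 CPM. The 3 doses did not overlap, although the step from low to medium dose was not called. TM7SF2 fell by 0.64 ± 0.055 against low (adjusted p = 6.9e-10) and by 0.71 ± 0.054 against vehicle (adjusted p = 4.5e-11).

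In Yijin-tang TM7SF2 went from 34.6, 33 and 35.1 CPM at the low dose to 27.8, 28.3 and 25.7 CPM at the high dose, a log2 fold change of -0.33 ± 0.053 (adjusted p = 0.00057). In Okbyeongpung-san it went from 33.2 and 33 CPM to 23.2 and 22.9 CPM, a log2 fold change of -0.52 ± 0.082 (adjusted p = 0.012). LBR, a protein of the inner nuclear membrane with the same reductase activity, went the other way. LBR stood at 166, 171 and 176 CPM at the Soshiho-tang low dose and at 199, 203 and 205 CPM at the high dose, and rose by 0.24 ± 0.049 on the log2 scale (adjusted p = 0.00052). Against vehicle, whose LBR libraries were spread over 153, 172 and 140 CPM, the rise was 0.39 in Soshiho-tang and 0.27 in Yijin-tang.

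CYP51A1, lanosterol 14-demethylase, resembled SQLE. CYP51A1 stood at 179, 183 and 182 CPM at the Soshiho-tang low dose and at 179, 181 and 182 CPM at the high dose, ranges that overlapped almost fully. In Yijin-tang CYP51A1 went from 186, 184 and 185 CPM to 148, 157 and 158 CPM and fell by 0.26 ± 0.039 (adjusted p = 0.00031). Vehicle libraries of CYP51A1 were at 154, 168 and 159 CPM, so that the Soshiho-tang high dose was 0.18 above vehicle (adjusted p = 0.00042).

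MSMO1, a sterol methyl oxidase, fell in all 3 formulas, by 0.21, 0.36 and 0.49 in Soshiho-tang, Yijin-tang and Okbyeongpung-san. EBP, the sterol isomerase, and ERG28, a scaffold of the demethylating enzymes, fell against low dose and vehicle in Soshiho-tang and Yijin-tang. EBP stood at 73.5, 72.1 and 78.2 CPM in vehicle and at 62.1, 63 and 60.1 CPM at the Soshiho-tang high dose. DHCR7, which catalyses a last step to cholesterol, fell by 0.20 in Yijin-tang (adjusted p = 0.0043) and was at -0.03 in Soshiho-tang (adjusted p = 0.61). NSDHL, a sterol dehydrogenase, and SC5D, the sterol C5-desaturase, did not pass the test between high and low dose in any formula, although both were called lower in the paired fit of Yijin-tang alone. HSD17B7, a keto-reductase of the pathway, fell by 0.22 in Soshiho-tang. Its value is uncertain because 2 pseudogene copies took reads equal to 13% of its own, and the call was lost without any 1 of 5 of the 6 libraries, all but low replicate 2.

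Some smaller calls were lost when 1 library was left out, for most of them any of several. In Soshiho-tang ACAT2 lost its call without high or low replicate 1 or 3. IDI1 lost it without high replicate 1 or 2 or low replicate 1 or 3, and ERG28 without low replicate 2. In Yijin-tang IDI1 lost its call without any library but low replicate 2, EBP without any but high replicate 3, and ERG28 without any but high replicate 2.

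**Figure D2:**
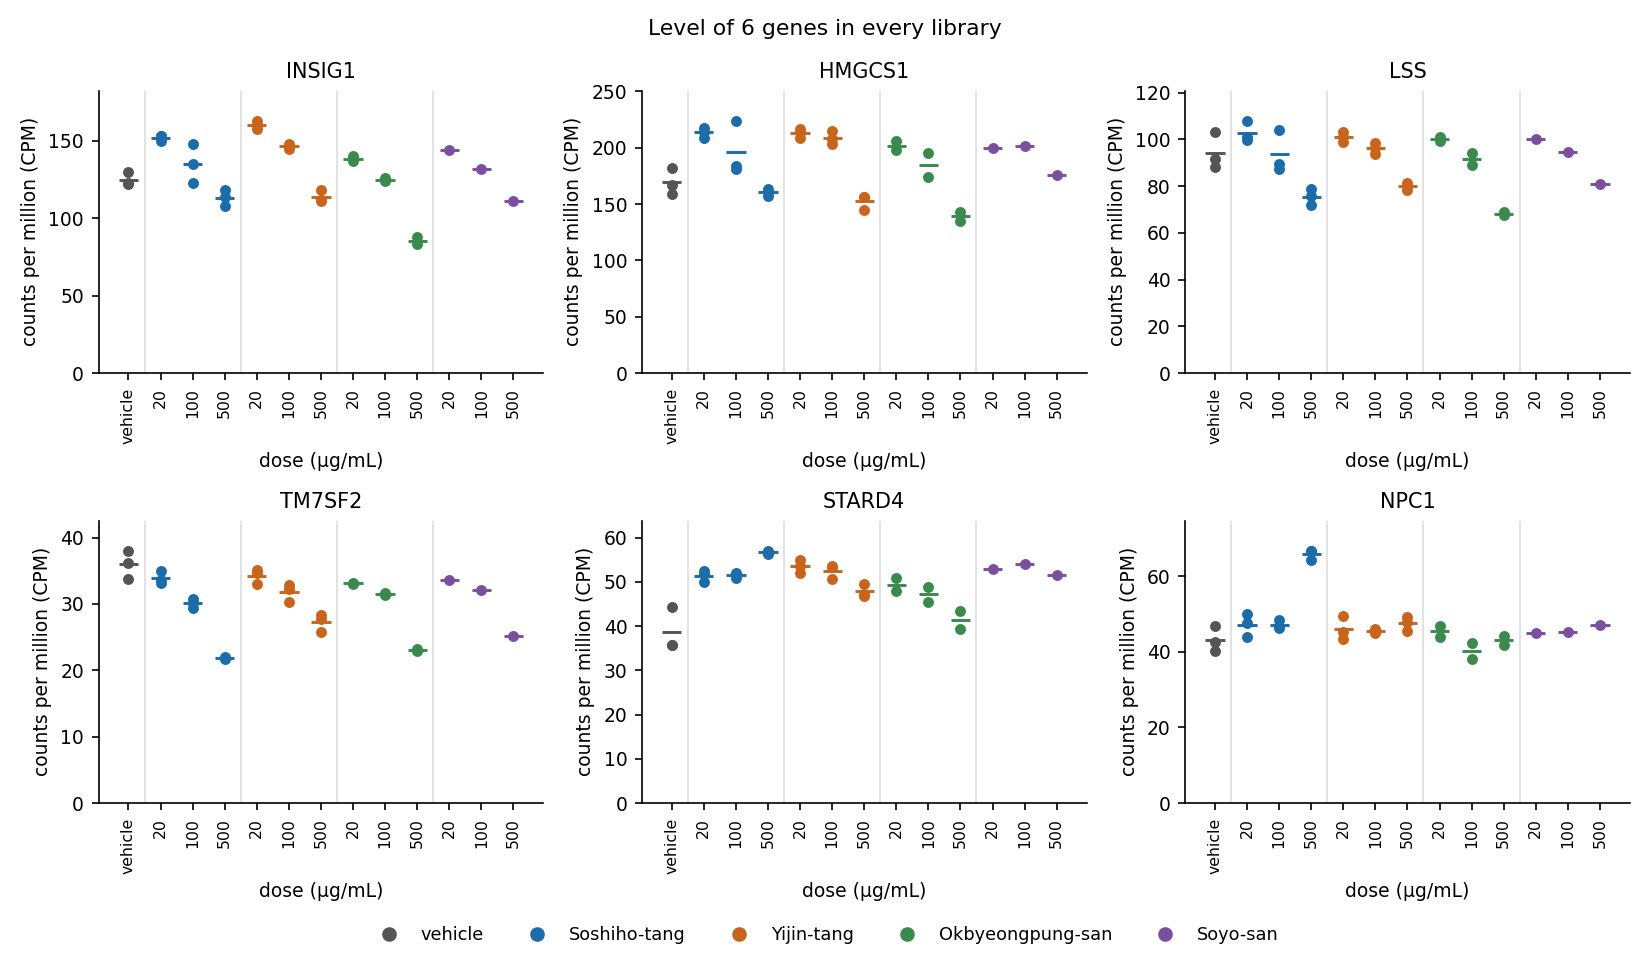
Level in CPM (vertical axis, from 0) of INSIG1, HMGCS1, LSS, TM7SF2, STARD4 and NPC1 in each of the 30 libraries, by group and dose in µg/mL; points are libraries and bars are group means. INSIG1 in the Okbyeongpung-san high libraries (83.3 and 87.6 CPM) and NPC1 in the Soshiho-tang high libraries (66.7, 66.7 and 64.4 CPM) stand clear of all other libraries.

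In the sterol-sensing machinery, INSIG1 fell in all 3 formulas while INSIG2 did not fall in any. INSIG1 stood at 153, 150 and 153 CPM at the Soshiho-tang low dose, at 148, 123 and 135 CPM at the medium dose and at 114, 108 and 118 CPM at the high dose. In Yijin-tang INSIG1 stood at 158, 160 and 163 CPM, then at 147, 145 and 148 CPM, then at 111, 112 and 118 CPM. In Okbyeongpung-san it stood at 137 and 140 CPM, then at 124 and 126 CPM, then at 83.3 and 87.6 CPM. In each formula the high libraries lay below all medium and low libraries of INSIG1, and the medium libraries lay below the low ones. The log2 fold changes from low to high dose were -0.42 ± 0.049 (adjusted p = 1.6e-07), -0.49 ± 0.049 (adjusted p = 5.8e-07) and -0.70 ± 0.069 (adjusted p = 0.00046).

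The vehicle libraries of INSIG1 were at 122, 130 and 123 CPM, between the low and high doses. Against vehicle INSIG1 fell by 0.55 ± 0.063 at the Okbyeongpung-san high dose (adjusted p = 0.00066) and by 0.13 ± 0.049 at that of Soshiho-tang (adjusted p = 0.035). The latter call was lost without vehicle replicate 2 or high replicate 2. In Yijin-tang the value was -0.13 ± 0.049 (adjusted p = 0.069). INSIG2 stood at 22.9, 21.8 and 22.4 CPM at the Soshiho-tang low dose and at 26.6, 27.6 and 26.3 CPM at the high dose. INSIG2 rose there by 0.26 ± 0.055 (adjusted p = 0.00065), while its values were 0.04 in Yijin-tang and 0.02 in Okbyeongpung-san, neither called.

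SREBF2 moved less than INSIG1. SREBF2 stood at 273, 281 and 262 CPM at the Soshiho-tang low dose and at 243, 254 and 240 CPM at the high dose, and fell by 0.15 ± 0.046 (adjusted p = 0.017). That call was lost without high replicate 1 or 3 or low replicate 2. SREBF2 was at -0.13 in Yijin-tang and -0.14 in Okbyeongpung-san, neither called, although the paired fit of Yijin-tang alone called it lower. SCAP lay between -0.03 and 0.07 in the 3 formulas and was not called.

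The genes of sterol transport did not move as a group. NPC1, which exports cholesterol from lysosomes through their membrane, stood at 46.8, 42.6 and 40.3 CPM in vehicle and at 47.7, 43.8 and 50 CPM at the Soshiho-tang low dose. The medium-dose libraries were at 46.4, 46.8 and 48.3 CPM and the high-dose libraries at 66.7, 66.7 and 64.4 CPM. Only the high dose stood out. NPC1 rose by 0.48 ± 0.057 against low (adjusted p = 2.2e-07) and by 0.62 ± 0.056 against vehicle (adjusted p = 1.4e-09). At the Yijin-tang high dose NPC1 was at 45.4, 47.9 and 49.3 CPM and overlapped its low dose at 45.2, 43.3 and 49.5 CPM.

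NPC2, the soluble lysosomal partner that hands cholesterol to NPC1, went down in Soshiho-tang, where NPC1 went up. NPC2 went from 32.4, 32.8 and 29.3 CPM at the Soshiho-tang low dose to 26.4, 26.5 and 24.3 CPM at the high dose. It fell by 0.29 ± 0.065 (adjusted p = 0.0013). NPC2 was also lower at the high dose where NPC1 moved little. In Yijin-tang NPC2 was at -0.16 (adjusted p = 0.28, not called) and NPC1 at 0.05. In the Okbyeongpung-san pairs of batch E and batch D, NPC2 was at -0.18 and -0.29 and NPC1 at -0.07 and -0.08. In the Soyo-san pair NPC2 was at -0.43 and NPC1 at 0.06. STARD4, a carrier of cholesterol between membranes and a known SREBP2 target, stood at 35.7, 44.3 and 35.8 CPM in vehicle. STARD4 was at 50, 51.7 and 52.5 CPM at the Soshiho-tang low dose and at 57, 56.3 and 56.7 CPM at its high dose. The step between the doses, 0.14 ± 0.059, was not called (adjusted p = 0.086), although every high library lay above every low one. At the Yijin-tang high dose STARD4 was at 46.7, 47.3 and 49.6 CPM, below its low dose at 55, 52 and 53.5 CPM, at -0.16 ± 0.059 (adjusted p = 0.22), a value that was called lower in the paired fit of Yijin-tang alone.

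Soshiho-tang and Yijin-tang differed in their change from low to high dose for 5 of the 28 genes by the interaction term of the same fit, which called 4.58% of all genes. In 4 genes the Soshiho-tang change was the higher one, where 2.15% of all genes were called that way, and in 1 the lower one, where 2.42% were. The difference in log2 fold change was 0.43 ± 0.081 for NPC1 (adjusted p = 0.0011). It was 0.27 ± 0.056 for SQLE (adjusted p = 0.0026) and 0.25 ± 0.056 for CYP51A1 (adjusted p = 0.0053). STARD4 differed by 0.29 ± 0.083 (adjusted p = 0.037) and TM7SF2 by -0.31 ± 0.077 (adjusted p = 0.014). Without Soshiho-tang low replicate 2, or without Yijin-tang high replicate 2, the count was 3, where 579 of 16162 and 563 of 16216 genes were called. TM7SF2 also lost its call without Yijin-tang low replicate 2, and STARD4 without any 1 of 9 of the 12 libraries. For the remaining 23 genes the difference did not pass the test. INSIG1 and HMGCS1 each differed by 0.07, with SEs of 0.069 and 0.086.

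**Figure D3:**
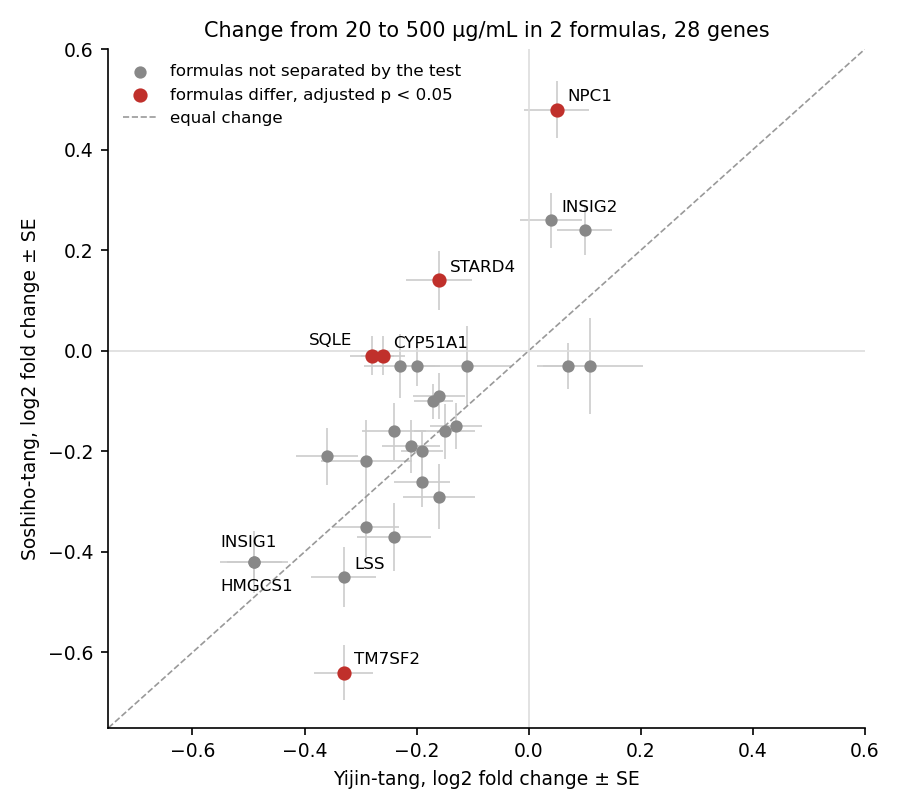
Log2 fold change from 20 to 500 µg/mL (± SE) of each of the 28 genes in Yijin-tang (horizontal axis) and Soshiho-tang (vertical axis); the dashed line marks equal change. The 5 red genes differed between the formulas: NPC1, STARD4, SQLE and CYP51A1 lie above the line and TM7SF2 below it.

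The lists of called genes differed in length between formulas, so their overlap is given as a share of each. Of the 16 cholesterol genes that fell in Soshiho-tang, 11 fell in Yijin-tang and 6 in Okbyeongpung-san. Of the 14 that fell in Yijin-tang, 11 fell in Soshiho-tang and 6 in Okbyeongpung-san, and all 6 that fell in Okbyeongpung-san fell in both others. Over all genes, 7.49% of the 2137 lower calls of Soshiho-tang were also lower calls of Yijin-tang, and 88.9% of the 180 lower calls of Yijin-tang were lower calls of Soshiho-tang. Lower calls of Okbyeongpung-san took in 2.2% of those of Soshiho-tang and 18.9% of those of Yijin-tang. Of the 49 lower calls of Okbyeongpung-san, 95.9% were lower calls of Soshiho-tang and 69.4% of Yijin-tang. These comparisons share no libraries, each formula having its own low dose.

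Against vehicle the high doses gave calls in both directions in Soshiho-tang and Yijin-tang, and lower calls only in Okbyeongpung-san. In Soshiho-tang 10 of the 28 genes were lower and 6 higher than vehicle, where 18.3% of all genes were lower and 21% higher. The 6 higher genes were CYP51A1, LBR, SC5D, INSIG2, STARD4 and NPC1. In Yijin-tang 8 were lower and 3 higher (LBR, INSIG2 and STARD4), where 8.39% and 12.7% of all genes were. In both formulas the share of higher calls was close to that over all genes, and the share of lower calls was above it. In Okbyeongpung-san 12 were lower and none higher, where 2.19% of all genes were lower and 2.19% higher. The medians were -0.07, -0.10 and -0.25. The Okbyeongpung-san count was 6 without vehicle replicate 3, and 2, TM7SF2 and INSIG1, without either of the high libraries. With a batch term it was 4, where 155 of 15762 genes were called. Within batch E, which holds the vehicle, the 1 high library was below the vehicle mean for 25 of the 28 genes, with a median of -0.26. All 3 formulas share the same vehicle libraries in these comparisons. In the vehicle libraries the mitochondrial share was 11.5 to 13.9% of counts, against 9.06 to 10.8% at the Soshiho-tang high dose and 10.8 to 12% at its low dose; the part of this in the results was not tested.

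At the low dose, several of these genes were above vehicle. In Soshiho-tang 9 of the 28 were higher and none lower, where 10.6% of all genes were higher and 6.34% lower. In Yijin-tang 9 were higher and PMVK was lower, where 10.3% and 6.66% were. The share of the 28 genes was thus above the background for higher calls. HMGCS1, IDI1, FDPS, CYP51A1, LBR, MSMO1, SC5D, INSIG1 and STARD4 were the higher genes in both formulas, which share the vehicle libraries. The values were 0.35 and 0.34 for HMGCS1, 0.29 and 0.37 for INSIG1, and 0.43 and 0.48 for STARD4 in Soshiho-tang and Yijin-tang. These 3 genes kept the call under each alternative run for these comparisons, and the other calls were lost under at least 1. Without Soshiho-tang low replicate 3 the count in that formula was 5, where 1533 of 16122 genes were called. In Okbyeongpung-san edgeR called none of the 28, where 0.14% of all genes were higher and 0.133% lower. Of the 28, 9 had an unadjusted p under 0.05 there, where 3060 of 15762 genes did. DESeq2 called 2 of the 28, where it called 523 of 7909 genes. Without vehicle replicate 2 edgeR called 4, all higher, where 913 of 15491 genes were called. Between pairs of vehicle replicates the chi-square of the counts divided by its degrees of freedom was 11.2 to 20.6, and 2.41 to 10.4 between replicates of the other groups; the part of this in the results was not tested.

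Between the medium and the low dose edgeR called none of the 28 genes in any formula, and 0% of all genes. Unadjusted p-values were under 0.05 for 6 of the 28 in Soshiho-tang, 2 in Yijin-tang and 0 in Okbyeongpung-san. Over all genes this was so for 474 and 509 of 15882 and for 369 of 15762, in that order. DESeq2 called 0 of the 28 in each. With the Yijin-tang libraries fitted alone and blocked by replicate, 1 of the 28, INSIG1, was called, where 12 of 15406 genes were. The mean over the 28 genes of the log2 CPM difference from vehicle was 0.07 to 0.09 at the Soshiho-tang low dose, -0.01 to 0.09 at the medium dose and -0.06 to -0.03 at the high dose. In Yijin-tang it was 0.07 to 0.11, 0.04 to 0.09 and -0.11 to -0.08. In Okbyeongpung-san it was 0.03 to 0.07, 0 to 0.01 and -0.23 to -0.21. The high dose lay below the vehicle libraries, at -0.02 to 0.02, in each of these formulas.

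**Figure D4:**
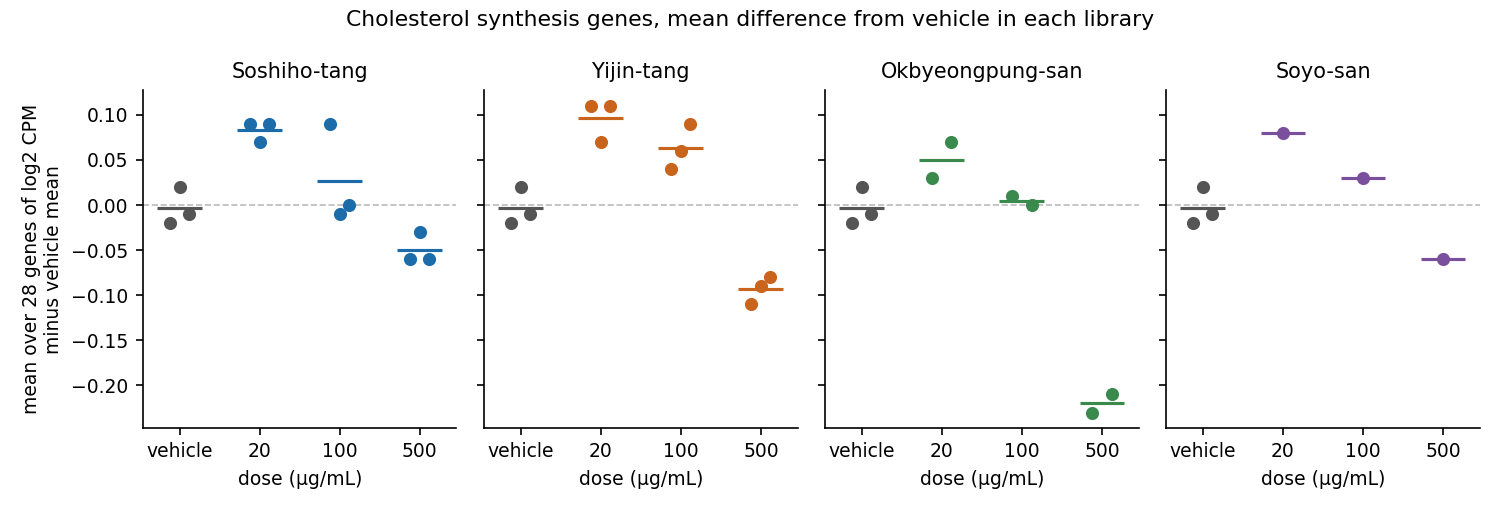
Mean over the 28 genes of log2 CPM minus the vehicle mean (vertical axis) in each library, by formula and dose in µg/mL; points are libraries, bars are group means, and the vehicle libraries are repeated in each panel. In every formula the 500 µg/mL libraries lie lowest, between -0.23 and -0.03.

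The batches of Okbyeongpung-san could be read separately, with 1 library a dose in each and hence no test. In batch E 24 of the 28 genes were lower at the high than at the low dose and in batch D 26 were, with a median log2 difference of -0.26 in both. INSIG1 was at -0.72 in batch E and -0.68 in batch D. Soyo-san had 1 library at each dose, all in batch D, so that its differences have no replicate check. There none of the 28 genes was past 1.5-fold in either direction, where 4.15% of 16885 genes were past it upward and 5.99% downward. Values were below 0 for 24 of 28 genes, with a median of -0.12, and ranged from -0.43 for NPC2 to 0.12 for LBR. INSIG1 in Soyo-san stood at 144 CPM at the low dose, 132 CPM at the medium dose and 111 CPM at the high dose. TM7SF2 stood at 33.6, 32.1 and 25.2 CPM in the same order.

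**Figure D5:**
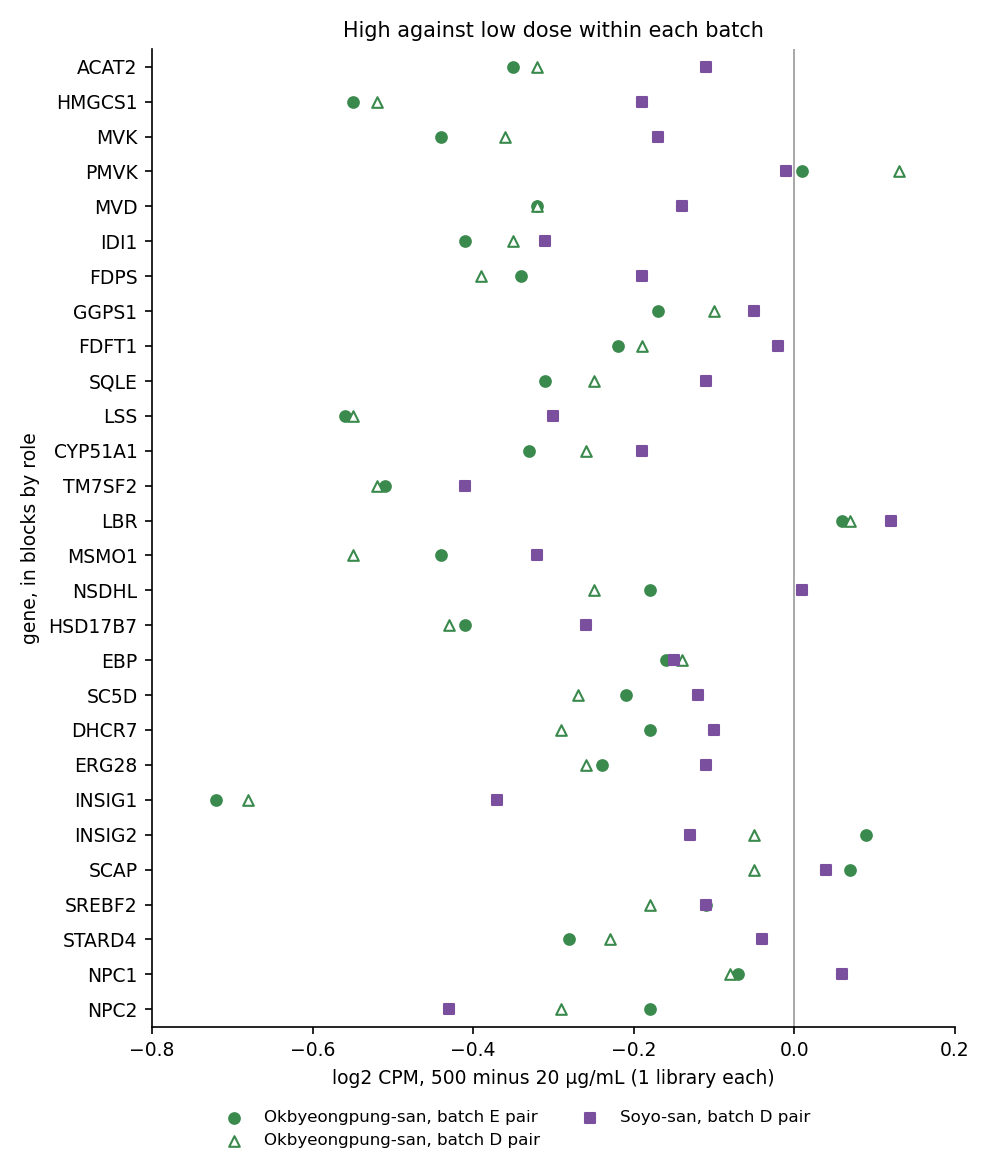
Difference in log2 CPM between the 500 and the 20 µg/mL library (horizontal axis) of each of the 28 genes in the Okbyeongpung-san pair of batch E (filled circles), the Okbyeongpung-san pair of batch D (triangles) and the Soyo-san pair of batch D (squares). The 2 Okbyeongpung-san pairs lie close together, with INSIG1 at -0.72 and -0.68, and the Soyo-san values range from -0.43 to 0.12.

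Genes of neighbouring pathways, listed apart from the 28, were read in the same fits, with the shares of all genes called given above as their background (13.3% higher and 13.5% lower in Soshiho-tang). Of 8 further cholesterol enzymes and SREBP2 targets that could be tested, 3 fell and 1 rose in Soshiho-tang between low and high dose, 2 fell in Yijin-tang and none was called in Okbyeongpung-san. All 8 were below 0 in Yijin-tang (median -0.13) and in Okbyeongpung-san (median -0.11), and 5 of 8 were in Soshiho-tang (median -0.08). PCYT2, an enzyme of phosphatidylethanolamine synthesis, fell by 0.30 and MMAB, a cobalamin enzyme whose gene neighbours MVK, by 0.22 in Soshiho-tang. Of 12 genes of SREBP processing and sterol-driven degradation, ERLIN1 and RNF139 rose by 0.16 and 0.15 in Soshiho-tang, and none was called in the other formulas. Of 13 genes of the isoprenoid branch and prenylation, NUS1, RABGGTB and RCE1 rose by 0.21, 0.19 and 0.20 in Soshiho-tang, and none was called in the others.

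Of 10 genes of SREBP1-driven fatty acid synthesis, ACSS2 fell in all 3 formulas. ACSS2, which makes cytosolic acetyl-CoA from acetate, fell from a mean of 16.2 to 8.25 CPM in Soshiho-tang, a log2 fold change of -0.98 ± 0.12 (adjusted p = 7.1e-07). It fell by 0.72 in Yijin-tang (adjusted p = 0.00053) and by 0.73 in Okbyeongpung-san (adjusted p = 0.021). In the same list ME1, the NADPH-making malic enzyme, rose by 0.51 and SCD, the stearoyl-CoA desaturase, fell by 0.11 in Soshiho-tang. Of 10 genes of LXR response, sterol efflux and storage, 2 rose and 2 fell in Soshiho-tang, 4 rose in Yijin-tang and none was called in Okbyeongpung-san. ABCA1 and SOAT1, a cholesterol exporter and a cholesterol-esterifying enzyme, fell by 0.84 and 0.75 in Soshiho-tang. LPCAT3 and NR1H3 rose by 0.18 and 0.19 there and by 0.25 and 0.24 in Yijin-tang. The other 2 that rose in Yijin-tang, named after their values were seen, were ABCG1, a sterol exporter, by 1.59 and MYLIP, a ligase that degrades lipoprotein receptors, by 0.45.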

How the data were processed

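Per the labels' protocols, total RNA of 30 HT29 libraries in 13 groups was sequenced with 100 bp reads. The authors deposited a table of RSEM expected counts for 60675 gene rows, of which 56558 were matched to a symbol; 30 further unnamed columns held no values and were not used. The submitters' processing notes name RSEM 1.3.3 and STAR 2.7.3a, with Trim Galore 0.6.5 and FastQC 0.11.9. The annotation release used for counting is not given in the sources used here, and gene positions and promoters come from GRCh38 tables.

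Expected counts were rounded and tested with edgeR 4.0.16 (R 4.3.3; TMM scaling, filterByExpr, robust quasi-likelihood F-test, Benjamini-Hochberg over all genes tested). One fit held the libraries of Soshiho-tang, Yijin-tang and the vehicle (21 libraries, 15882 genes, biological coefficient of variation 4.71%), the other vehicle and Okbyeongpung-san (9 libraries, 15762 genes, 7.03%). Soyo-san values are differences of log2 CPM with a prior count of 2 and no test. The SE of a fold change is its size divided by the square root of F. CPM levels use TMM factors over all libraries (0.942 to 1.02). Settings were checked on simulated counts. Alternatives were DESeq2 1.42.0, other scaling, no filter, other sets of libraries, a batch term, a replicate block and leaving out single libraries.

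Same-numbered libraries deviated together in Yijin-tang, and these numbers were taken as pairs, which no label states. Correlations over 9744 genes were 0.28, 0.19 and 0.21 between high and low, and 0.22, 0.15 and 0.18 between medium and low. Libraries of different number gave at most -0.02 in these 2 comparisons. Elsewhere different numbers reached 0.3, between Soshiho-tang low replicate 3 and a vehicle library, so values of this size also arose without a shared number. In Okbyeongpung-san the same-number correlation between high and low was 0.13, a single value, since with 2 libraries a dose both pairs must give the same one. Among those libraries the number coincides with the batch in the titles. No 2 libraries were identical. The members and gene lists were chosen with earlier results of these data known. Named with full values were the 10 members with the largest called change in Soshiho-tang high against low, up to 5 by adjusted p in the other formulas, HMGCS1, SQLE, INSIG1, INSIG2, SREBF2, STARD4 and NPC1, and up to 4 genes of each other list; further genes were named after their values were seen.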

Additional observations from a re-analysis of the deposited data

Results flagged for a closer look

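The change from low to high dose differed between Soshiho-tang and Yijin-tang by the interaction test for 5 genes. The difference, Soshiho-tang minus Yijin-tang on the log2 scale, was 0.43 for NPC1, 0.27 for SQLE, 0.25 for CYP51A1, 0.29 for STARD4 and -0.31 for TM7SF2. In NPC1 the value was 0.48 in Soshiho-tang and 0.05 in Yijin-tang, and in SQLE -0.01 and -0.28. STARD4 stood out in a further way: its change from low to high dose was 0.14 in Soshiho-tang, with every high library above every low one, and -0.26 in Okbyeongpung-san, with every high library below every low one. The difference between those 2 formulas was not tested.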

How the results depend on the processing

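No result changed direction under any alternative among those that had passed the test. Of the called genes, 13 of 19 kept their call under every alternative first listed for Soshiho-tang high against low, 12 of 16 against vehicle, 10 of 14 and 6 of 11 in Yijin-tang, and 1 of 6 and 2 of 12 in Okbyeongpung-san. Counts of the 28 genes moved by over 1.5 times in these cases. With only the compared libraries fitted, counts were 3 in place of 9 for Soshiho-tang low against vehicle, 6 in place of 11 and 4 in place of 10 for Yijin-tang high and low against vehicle, 8 in place of 5 for the difference between the formulas, and 21 in place of 6 and 5 in place of 12 for Okbyeongpung-san high against low and against vehicle. Over all genes, calls there went from 2691 to 362 for Soshiho-tang low against vehicle. They went from 3343 to 1040 and from 2697 to 498 for Yijin-tang, and from 727 to 1352 for the difference. In Okbyeongpung-san they went from 88 to 938 and from 690 to 216. With all 30 libraries in 1 fit, the Okbyeongpung-san counts were 16 for high against low and 22 for high against vehicle. For low against vehicle the count was 7 in place of 0. All-gene calls in that fit were 347, 2962 and 2426 of 16885, in place of 88, 690 and 43. Without vehicle libraries, an alternative chosen after seeing the data, counts were 14 in Okbyeongpung-san for high against low, and 8 for the difference. All-gene calls were then 204 of 15138 and 1339 of 15737. The batch term gave 4 for high against vehicle, and DESeq2 and no filter each gave 2 for low against vehicle. Over all genes these gave 155 of 15762, 523 of 7909 and 1115 of 30041 calls. The cause was not tested.

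With the replicate block, the count was 11 for Okbyeongpung-san high against low, where 156 of 15762 genes were called. With Yijin-tang alone and blocked, also chosen after seeing the data, it was 23 for high against low, against 21 for Yijin-tang alone without the block, and 1 for medium against low. Over all genes the calls were 1456, 858 and 12 of 15406, in that order. In Soshiho-tang the same-number correlations were 0.08, -0.12 and 0.16 between high and low libraries, and 0.29, 0.02 and 0.06 between medium and low. The block over vehicle, Soshiho-tang and Yijin-tang gave 19, 16 and 9 for Soshiho-tang high against low, high against vehicle and low against vehicle, 15, 11 and 9 for Yijin-tang, and 5 for the difference between formulas. Over all genes that block called 4399, 6361 and 2789 of 15882 for Soshiho-tang, 328, 3517 and 2833 for Yijin-tang, and 743 for the difference. In Okbyeongpung-san the block gave 14 for high and 0 for low against vehicle, where 992 and 468 of 15762 genes were called. Leaving out single libraries gave 1 to 1 for Okbyeongpung-san high against low, 2 to 16 for high and 0 to 4 for low against vehicle. It gave 14 to 16, 15 to 18 and 5 to 11 for Soshiho-tang in the same order, 11 to 12, 11 to 16 and 7 to 12 for Yijin-tang, 3 to 5 for the difference between formulas, and 0 for each medium against low.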
